A study of Mus musculus with 12 samples.

Results

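Srp54a, Srp54b and Srp54c are 3 near-identical mouse genes, side by side on chromosome 12, for a subunit of the signal recognition particle, and they are described here in the retina of C57BL/6J, of Cast/EiJ and of their F1 hybrids. They were taken by gene symbol, 3 of the 37991 genes measured. They were chosen by their estimated levels, which differed between the parental strains, so every F0 value of these genes is a description without a test. The summed locus is the sum of the 3 genes in a library or allele. It does not depend on how reads that match several copies were divided among the copies, though in the F1 it still depends on how they were divided between the alleles.

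The signal recognition particle binds the signal sequence of a protein as it leaves the ribosome, slows its synthesis and brings the ribosome to the endoplasmic reticulum. The Srp54 subunit is the GTPase that holds the signal sequence. The particle docks on a receptor, whose subunits are encoded by Srpr and Srprb, and the growing chain passes into the Sec61 translocon. Photoreceptors, which renew the membranes of their outer segments throughout life, make many membrane proteins by this route.

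Polyadenylated RNA was sequenced in 12 libraries of retinas pooled from male mice aged 8 weeks, with 3 libraries in each of 4 groups. The inbred parents (F0) were C57BL/6J, written B6 here, and Cast/EiJ, written Cast. The hybrids were F1 B6xCast, with a B6 father and a Cast mother, and F1 CastxB6, with a Cast father and a B6 mother. No group carried a transgene or received a treatment. The level used here is the count equivalent, an estimate by the program MMSEQ of the reads of a gene, scaled by the authors so that each F0 library and each allele of an F1 library sums to about the same total (12648792 to 13843914). An F1 library therefore has 2 columns, 1 per allele, and their mean is its level on the F0 scale. Levels of different genes are compared as FPKM, which is per length. Unique hits are whole read pairs that match 1 gene only, and in F1 also 1 allele only.

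Depth ranged from 8158534 to 12363291 unique hits per library. Within F0, replicate 1 of each strain stood apart: unique hits of replicate 1 against the others gave a chi-square per degree of freedom of 11.4 and 12.5 in B6 and of 7.18 and 8.42 in Cast, against 3.09 and 3.20 between replicates 2 and 3. F1 B6xCast replicate 1 did likewise on the B6 allele (5.71 and 5.97, against 1.51) and on the Cast allele (6.11 and 6.27, against 1.52). No 2 libraries differed by less than sampling noise. Trpm1 and Grm6, of the light response of ON bipolar cells, a neuron type of the retina, stood at 3610 to 5400 and at 1250 to 1800 count equivalents over all 18 columns, so the labelled tissue had these markers. The 4 retinal pigment epithelium genes summed to 93.4 to 121 in F0 B6 and to 41.6 to 65.4 in F0 Cast, and those of F1 lay between 51.2 and 129. Of the 3 lens genes Lim2 stayed at or below 3 everywhere, and the summed lens level overlapped between the F0 strains (8.36 to 133 and 59.1 to 183). The part of these cells in the results below was not tested.

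On NCBI37, all 3 genes lie on the plus strand of chromosome 12. Srp54a (ENSMUSG00000021020) spans 56181557 to 56214680, Srp54b (ENSMUSG00000079108) 56181483 to 56290200 and Srp54c (ENSMUSG00000073079) 56331155 to 56377912. The span of Srp54b contains Srp54a because 1 of its 2 coding transcripts, Srp54b-201, is annotated to begin at the first exon of Srp54a and to splice over the rest of that gene. The coding sequence of each copy has 1515 bases. Srp54a and Srp54b were identical over all of them, so no coding read can separate these copies. Srp54c differed from both at 6 positions, counted from 1 at the first base of the coding sequence. T501C and T945C are synonymous, and G946A, T965G, A1197T and G1249A change 4 amino acids.

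**Figure D1:**
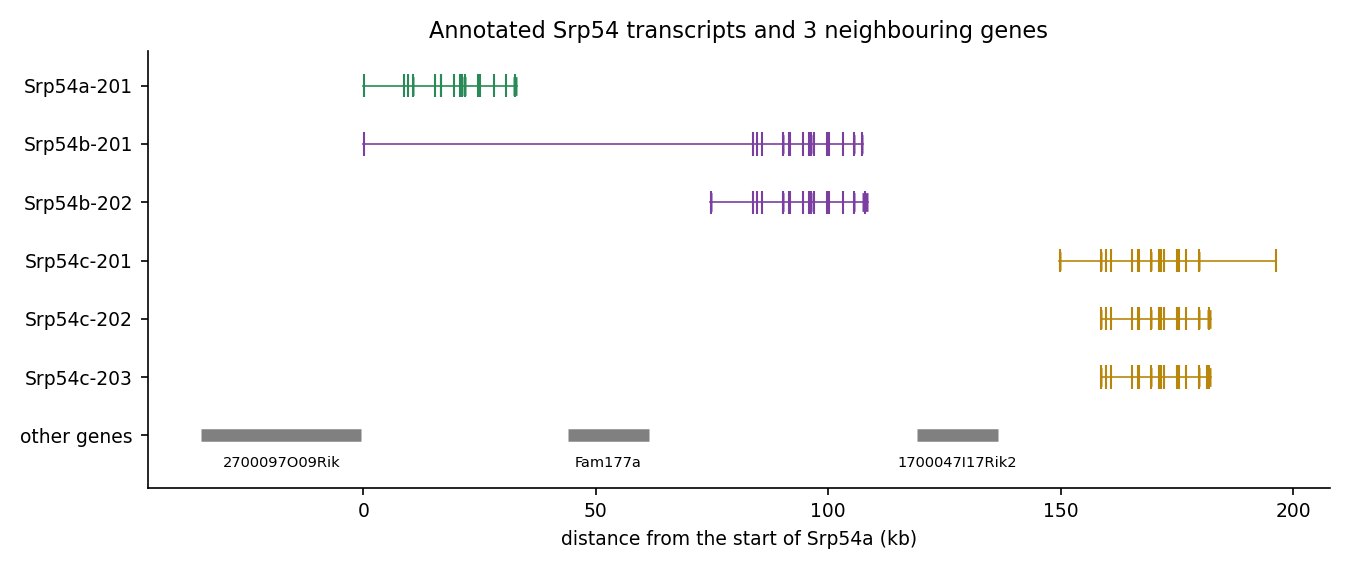
Annotated coding transcripts of Srp54a, Srp54b and Srp54c and the spans of 3 neighbouring genes, by distance in kb from the start of Srp54a. Vertical ticks mark exons (drawn at a fixed minimum width), and thin lines join the exons of a transcript. Srp54b-201 starts at the first exon of Srp54a, and Fam177a lies inside the long first intron of that transcript, after the end of Srp54a.

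The 30-base windows that follow carry 4 of the 6 differences by which a read can be told to come from Srp54c, 3 of which change an amino acid. The first holds coding positions 945, 946 and 965, in exon 11 of Srp54a, and capitals mark these 3 bases. All windows are coding exon sequence on the plus strand of NCBI37, read 5′ to 3′.
Srp54a, chr12:56203509-56203538: ataaTGaggcacttatagagaagtTgaagc
Srp54b, chr12:56278569-56278598: ataaTGaggcacttatagagaagtTgaagc
Srp54c, chr12:56353813-56353842: ataaCAaggcacttatagagaagtGgaagc
The other window holds coding position 1249, in exon 14 of Srp54a, as the capital.
Srp54a, chr12:56209567-56209596: tgtcaacaagagatGttcaagaacttctga
Srp54b, chr12:56284627-56284656: tgtcaacaagagatGttcaagaacttctga
Srp54c, chr12:56358490-56358519: tgtcaacaagagatAttcaagaacttctga
In both windows Srp54a and Srp54b have the same letters, and Srp54c has its own.

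The share of each gene that a read could identify was counted as the stretches as long as a read in its annotated coding transcripts that occur in no other copy. A read pair can join 2 such stretches, so these counts are for single reads. Srp54a had 0 such stretches of 2416, because every one of them is also in Srp54b. Srp54b had 534 of 3383 (15.8%), of which 460 lie beyond the coding part of Srp54b-202 and 74 before the coding part of Srp54b-201. Srp54c had 555 of 2906 (19.1%), each touching the coding sequence. None of the stretches of any copy occurred in another coding gene of the annotation. The gene bodies, introns included, were also close, with 99.7% identity between Srp54a and Srp54b, 99.1% between Srp54a and Srp54c and 99.4% between Srp54b and Srp54c over aligned bases (Srp54b from the start of Srp54b-202). These are B6 reference sequences. The strain transcriptomes to which the reads were mapped were made by placing Cast variants into that reference, so all 3 copies were offered to the Cast reads too, and the number of copies in the Cast genome was not analysed here.

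The unique hits followed that division for Srp54a and Srp54c in F0 B6. Those of Srp54b were fewer per count equivalent than its 15.8% of stretches. In F0 B6, Srp54a had 0 unique hits in all 3 libraries, Srp54b had 181, 218 and 237, and Srp54c had 356, 466 and 419. Per 100 count equivalents this was 6.79 for Srp54b and 19.9 for Srp54c, beside a median of 86.8 over the 10301 autosomal genes whose mean level in these libraries reached 100. Most of the level given to each copy was therefore assigned by the model from shared reads. In F0 Cast, Srp54a again had 0, Srp54b had 17, 36 and 43, and Srp54c had 1, 0 and 0.

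**Figure D2:**
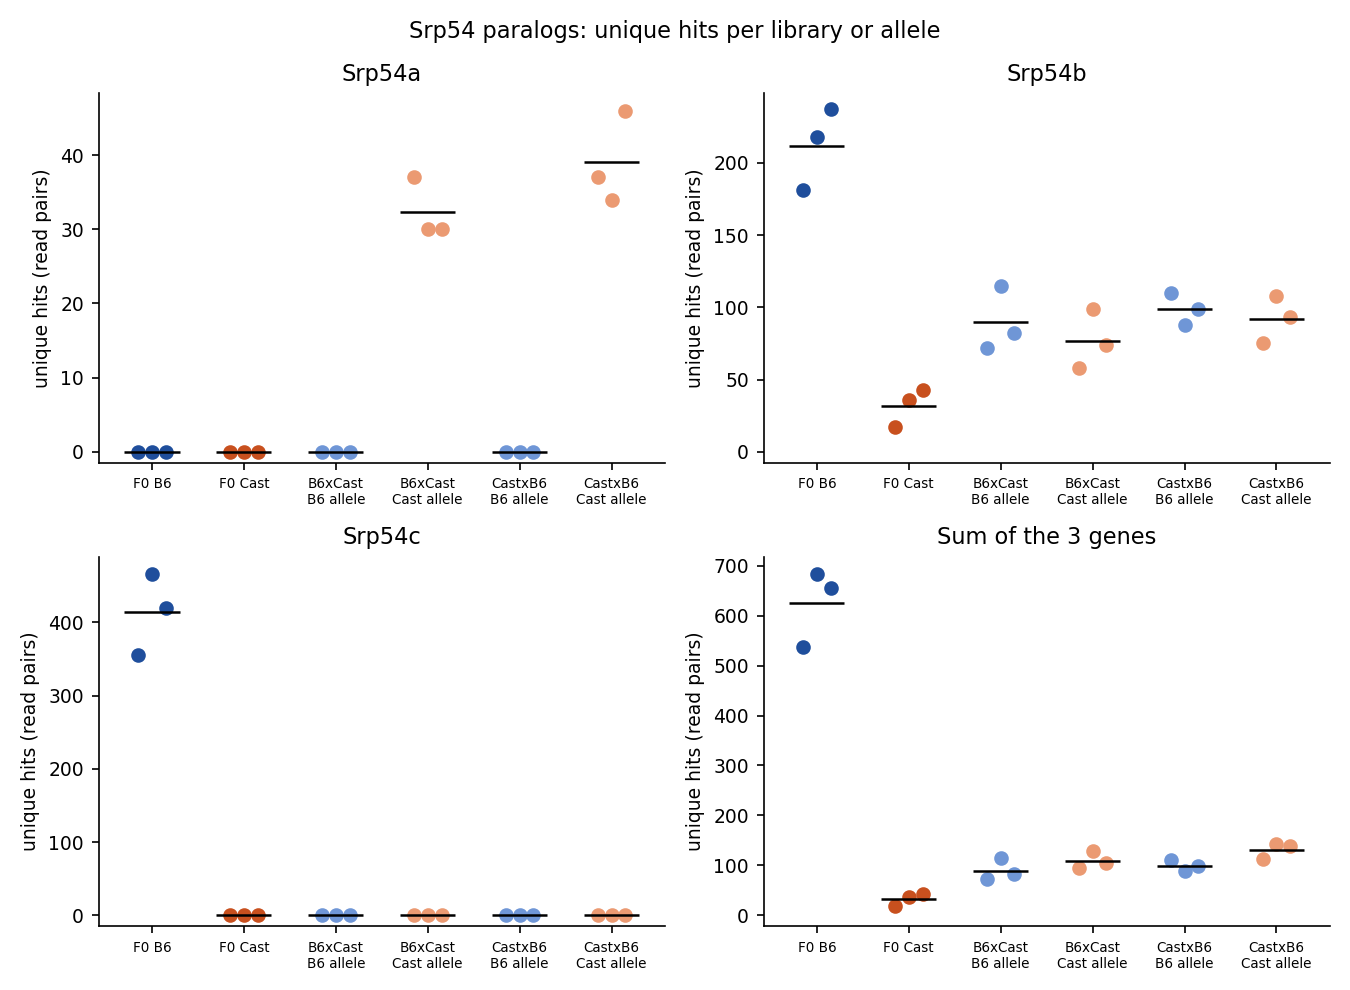
Unique hits (read pairs) of Srp54a, Srp54b, Srp54c and their sum. Each point is 1 library (F0) or 1 allele of a library (F1), in replicate order from left to right, and the line is the mean of 3. Srp54a has unique hits only on the Cast allele of the F1 libraries, and Srp54c has them in F0 B6, apart from 1 in F0 Cast.

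By count equivalents, Srp54b was the copy with the highest level in both F0 strains. In F0 B6 its unique hits were fewer than those of Srp54c, 636 against 1241, from 534 and 555 stretches found in no other copy. The count equivalents of Srp54b were 2950, 3060 and 3350 in F0 B6 and 727, 1100 and 1050 in F0 Cast. All Cast libraries lay below all B6 libraries, as they did for 22.7% of the 14452 genes tested in F0. The means, 3120 ± 207 and 959 ± 202 (SD, n = 3 each), stood 3.25-fold apart. In pooled retinas, fewer cells of a type that expresses a gene and less RNA per cell cannot be told apart. Per 1000000 unique hits of the library, which use no reads shared between annotated transcripts, the mean unique hits were 19.2 ± 3.29 in B6 and 3.58 ± 1.32 in Cast (SD, n = 3), 5.37-fold apart. These hits rest on the annotated transcript ends, since all stretches specific to Srp54b lie outside its coding part.

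Srp54c had 1950, 2150 and 2130 count equivalents in F0 B6 and 6.88, 0.194 and 0.172 in F0 Cast. Its Cast libraries were all near 0, and the 2 groups were separated by the whole range. A total of 1241 unique hits in B6 stood against 1 in Cast.

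Srp54a was at 0.00327, 0.00222 and 0.00141 count equivalents in F0 B6, and at 410, 0.128 and 205 in F0 Cast. The Cast libraries disagreed with each other by the whole range, with replicate 2 near 0. All of them were above all B6 libraries, as for 25.3% of the 14452 genes tested in F0. Srp54a is not among those genes, as it reached 10 count equivalents in fewer than 3 F0 libraries. That order says nothing for Srp54a, since Cast replicate 2 and the B6 libraries were all near 0 without unique hits. None of the Cast libraries had a unique hit. The posterior SD of the natural log level was 0.174, 9.39 and 0.509 in these 3 Cast libraries. The estimate of replicate 2 was thus far wider than those of the other Cast libraries. In the F0 B6 libraries that SD was at least 9.66 for Srp54a, beside 0.0283 to 0.0317 for Srp54b and 0.0359 to 0.0437 for Srp54c.

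The summed locus was steadier than its parts in Cast. It came to 4900, 5210 and 5480 count equivalents in F0 B6 and to 1144, 1100 and 1255 in F0 Cast. The coefficient of variation over the Cast libraries was 6.85% for the sum, against 21.1% for Srp54b and 99.9% for Srp54a. Where Srp54a was given 410 count equivalents, in replicate 1, Srp54b had its lowest value of 727, and where Srp54a was near 0, in replicate 2, Srp54b had its highest of 1100. The sum was 4.46-fold lower in Cast, a log2 ratio of means of -2.16, and 2.23% of all genes tested in F0 had a ratio that low or lower. From the FPKM the log2 ratio was -2.33, and from the unique hits of the 3 genes relative to the library's total it was -3.97. Leaving out each library in turn, replicate 1 included, gave -2.21 to -2.12.

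Per length, F0 B6 had 67.1 ± 4.90 FPKM of Srp54b and 49.97 ± 3.29 of Srp54c (SD, n = 3), with ranges that did not overlap (62.5 to 72.3 and 46.2 to 52.2). That order rests on how the model divided shared reads, since Srp54c had more unique hits in F0 B6 (1241 against 636). In F0 Cast the order was Srp54b with 18.8 ± 6.08 and then Srp54a with 4.37 ± 4.39 (SD, n = 3). The range of Srp54a (0.00270 to 8.77) took in that of Srp54c (0.00425 to 0.180), so these neighbours did not differ beyond their spread. Srp54c held 41.6 to 44.0% of the summed FPKM in the B6 libraries and 0.0159 to 0.868% in the Cast libraries.

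**Figure D3:**
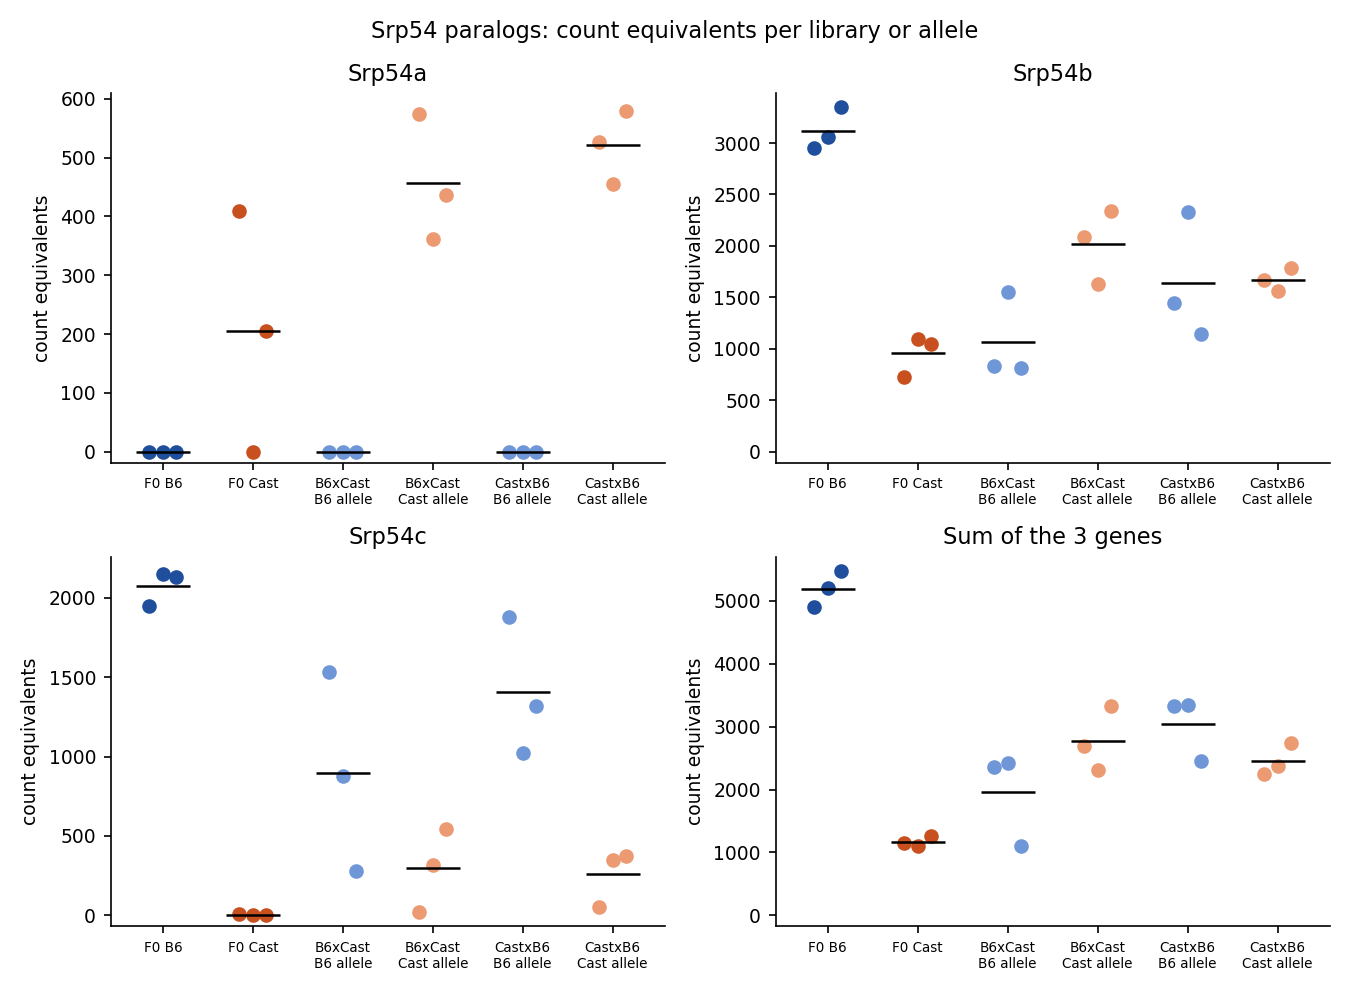
Count equivalents of Srp54a, Srp54b, Srp54c and their sum. Each point is 1 F0 library or 1 allele of an F1 library, in replicate order from left to right, and the line is the mean of 3; each panel has its own scale. The sum separates the F0 strains, and the mean of each allele in each cross lies between them, while 1 B6 allele (1097, F1 B6xCast replicate 3) is at the level of F0 Cast.

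The F1 libraries were intermediate for the locus as a whole. The mean of both alleles of the sum was 2526, 2369 and 2210 count equivalents in F1 B6xCast and 2789, 2859 and 2603 in F1 CastxB6. All 6 lay below all F0 B6 and above all F0 Cast libraries, an order that 5.6% of 13772 genes showed. Their mean of 2559 ± 246 (SD, n = 6) was 80.4% of the average of the F0 strains, 3182. Srp54b and Srp54c each showed the same order, at 1600 ± 178 and 715 ± 195 (SD, n = 6). Srp54a had 181 to 290 in F1, a range that overlapped F0 Cast. Per length, Srp54b had 42.6 to 48.6 FPKM in the F1 libraries, Srp54c 9.95 to 23.0 and Srp54a 3.93 to 6.30, so the 3 genes kept 1 order with no overlap. This order rests on the model's division of shared reads, as Srp54c had 0 unique hits in F1.

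The alleles of an F1 nucleus share their surroundings, so the allelic ratio asks whether the F0 difference also separates the alleles. On the B6 allele the summed locus was at 2363, 2429 and 1097 count equivalents in F1 B6xCast and at 3330, 3350 and 2460 in F1 CastxB6. On the Cast allele it was at 2688, 2309 and 3322 and at 2247, 2367 and 2746. The Cast allele was the higher one in 3 of 6 libraries, and the alleles overlapped. The log2 ratio of Cast over B6 was 0.13 ± 0.23 (SE, n = 6 libraries; 95% interval -0.42 to 0.69), with an adjusted p of 0.68 by limma across all 13878 features, Benjamini-Hochberg adjusted, where 41.5% were called. The adjusted p was 0.36 or higher under every alternative on the count equivalents or the log expression. The exact permutation test over the signs of the 6 library ratios, on both sides, gave p = 0.81, where the smallest possible is 0.031. Without F1 B6xCast replicate 3, which had the ratio of 1.60, the log2 difference was -0.12, and it was between 0.02 and 0.29 without any other library. The 95% interval covers the spread between libraries only. Over all F1 alleles the sum had 4.19 unique hits per 100 count equivalents. The median was 44.8 over the 10165 autosomal genes whose mean level there reached 100. The model divided the other reads among copies and alleles, and no F1 read pair of Srp54c was specific to an allele. The difference from the F0 log2 ratio of -2.16, a value of genes chosen by their F0 levels, was not tested.

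Each allele also sat apart from its own F0 strain. The Cast allele of the sum, at 2613 ± 403 (SD, n = 6), was 2.24 times the F0 Cast mean, and all 6 alleles were above all 3 F0 Cast libraries. The B6 allele, at 2505 ± 825 (SD, n = 6), was 2.07-fold below the F0 B6 mean, and all 6 were below all 3 F0 B6 libraries. Both held together for 1.07% of 13772 genes. These alleles were estimated on a hybrid transcriptome, and the F0 libraries each on a transcriptome of 1 strain; that difference goes with the generation and cannot be told apart from it.

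Unique hits cannot stand for the whole locus in the F1. The annotation marks Srp54c as without polymorphism, so none of its read pairs can be specific to an allele, and the B6 sequence of Srp54a has no stretch of its own, so only Srp54b could have such hits on both alleles. Summed over the 3 genes the unique hits were 72, 115, 82, 110, 88 and 99 on the B6 allele and 95, 129, 104, 112, 142 and 139 on the Cast allele of the 6 libraries, F1 B6xCast first. The Cast allele was higher in 6 of 6 libraries, as for 20.4% of genes by count equivalents, with 721 hits of 1287 in all. Of these 214 were those of Srp54a, and without them the Cast allele had 507 against 566.

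Srp54a was estimated on the Cast allele only. Its B6 allele had at most 0.00112 count equivalents in the 6 libraries. Its Cast allele had 574, 361 and 436 in F1 B6xCast and 526, 456 and 580 in F1 CastxB6, so the alleles were separated by the whole range. The B6 values had a posterior SD of the natural log level of at least 9.57, and the gene passed the minimum of 10 count equivalents through its Cast allele only, so the difference is given without a test. Unique hits were 37, 30, 30, 37, 34 and 46 on the Cast alleles, 214 in all. They were 0 on every B6 allele, where the shared sequence allows none. The F0 Cast libraries, with the same allele on both chromosomes, had 0. Why hits unique to this copy are counted in the F1 but not in the F0 Cast tables was not tested.

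Srp54b had 833, 1550, 818, 1450, 2330 and 1140 count equivalents on the B6 allele and 2090, 1630, 2340, 1670, 1560 and 1790 on the Cast allele of the same 6 libraries. The Cast allele was higher in 5 of 6, and the alleles overlapped. The log2 difference was 0.53 ± 0.23 (SE, n = 6; 95% interval -0.03 to 1.10) with an adjusted p of 0.12 by limma. Without F1 B6xCast replicate 2, in which the alleles were nearest to each other, the log2 difference was 0.76 and the adjusted p 0.029. On the deposited log expression it was 0.026, and over all 16 alternatives it ran from 0.0048 to 0.38. The exact permutation test gave p = 0.16.

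Read pairs that fall on Srp54b and on 1 allele alone went both ways between the libraries, with the Cast allele higher in 1 of 6. There were 566 on the B6 allele (72, 115, 82, 110, 88 and 99) and 507 on the Cast allele (58, 99, 74, 75, 108 and 93), a Cast share of 47.3% (Wilson 95% interval 44.3 to 50.2, which covers counting error only, since read pairs without molecular identifiers are not independent molecules). EdgeR's quasi-likelihood test gave a log2 ratio of -0.13 with an adjusted p of 0.23, in the opposite direction to the count equivalents. In F0, the unique hits of this gene were 636 in B6 and 96 in Cast.

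For Srp54c no F1 read pair was specific to an allele, and the deposited annotation marks the gene as having no polymorphism between the strains, unlike Srp54a and Srp54b. The unique hits were 0 on both alleles of all 6 libraries, where a hit must fit 1 allele only. The part of Srp54c in the allelic sum of the locus therefore rests on the model alone. The count equivalents were split, at 1530, 879, 279, 1880, 1020 and 1320 on the B6 allele and 24.0, 318, 546, 51.4, 351 and 376 on the Cast allele. The Cast share of a library ran from 1.54% in F1 B6xCast replicate 1 to 66.2% in replicate 3 of the same cross. The posterior SD of the natural log level was 0.139 to 2.78 on the B6 allele and 0.925 to 3.89 on the Cast allele, beside a median over genes of 0.0777. Since no read carries the allele of Srp54c, the values that follow describe the model's split and cannot test its allelic expression. The log2 difference was -2.49 ± 0.94 (SE, n = 6; 95% interval -4.77 to -0.21) with an adjusted p of 0.078 by limma. The adjusted p was 0.037 without F1 B6xCast replicate 3, the library in which the Cast allele was higher, and over 14 alternatives it ran from 0.012 to 0.30. The exact permutation test gave p = 0.062.

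**Figure D4:**
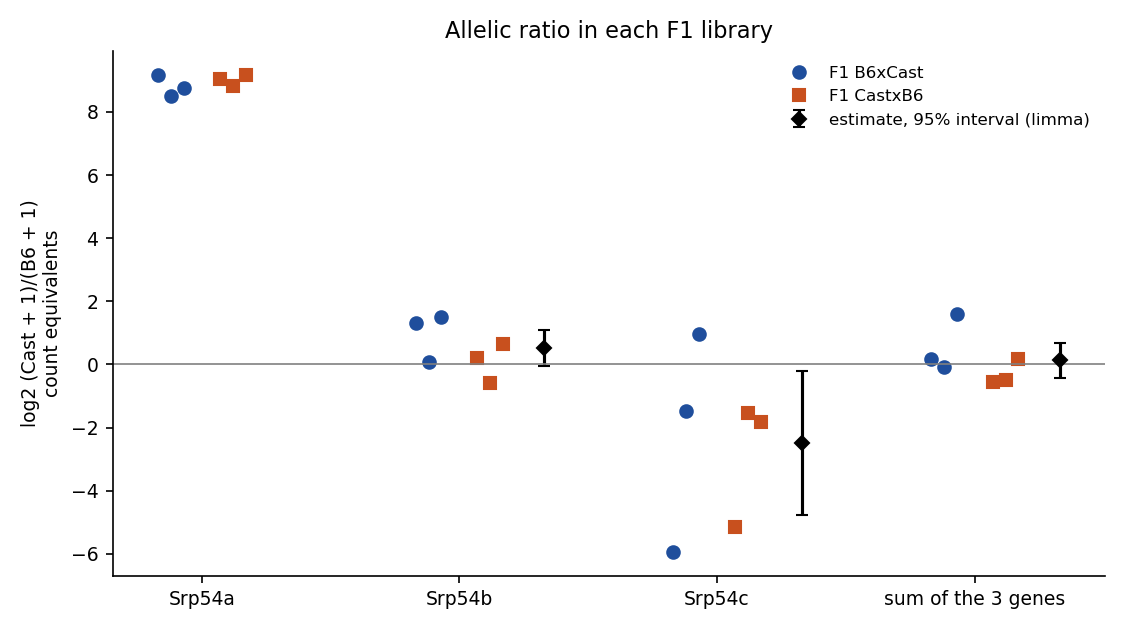
Log2 ratio of the Cast over the B6 allele, from count equivalents plus 1, for each gene and their sum. Points are the 6 F1 libraries by cross, in replicate order, and diamonds are limma estimates with 95% intervals, drawn for all but Srp54a. Srp54a lies between 8.50 and 9.18, a height set by the 1 added to a B6 allele at 0, Srp54b is above 0 in 5 of 6 libraries, the sum in 3 of 6, and Srp54c spans -5.94 to 0.97. No read carries the allele of Srp54c, so its diamond describes the model's split only.

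Parent-of-origin effects were asked of the same ratios, as the maternal over the paternal allele averaged over both crosses. The log2 differences were 0.44 ± 0.23 for Srp54b, 0.35 ± 0.94 for Srp54c and 0.44 ± 0.23 for the sum (SE, n = 6). For Srp54c the value rests on the model's split alone. The adjusted p by limma was 0.95 to 0.98 for these 3 features, and 0.288% of the 13878 features were called. In unique hits the sum stood at -0.054 and Srp54b at -0.052, with the sign turned. The 95% interval of the sum was -0.12 to 0.99.

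Between the crosses, the total of the locus was a little higher in F1 CastxB6. The means were 2368 ± 158 count equivalents in F1 B6xCast and 2750 ± 132 in F1 CastxB6 (SD, n = 3), and all 3 of the latter were above all 3 of the former, as for 5.5% of 13877 genes. The log2 difference was 0.22 ± 0.06 (SE, n = 3 a cross) with an adjusted p of 0.92 by limma, and 0.0288% of features were called. The exact permutation test on both sides gave p = 0.10, the smallest that 3 libraries against 3 allow. Srp54a, Srp54b and Srp54c each overlapped between the crosses, with log2 differences of 0.21, 0.09 and 0.52.

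The F0 differences of the other protein genes of the particle ranged from -1.14 to 0.53 on the log2 scale, beside -2.16 for the summed Srp54 genes. Srp9 and Srp14, whose products together slow the ribosome, went in opposite directions in F0. Srp9 had 405, 353 and 405 count equivalents in B6 and 193, 154 and 180 in Cast, a log2 difference of -1.14 ± 0.12 (adjusted p = 0.00013 by limma, as for all F0 values that follow). Srp14 rose from 443 ± 53.3 in B6 to 641 ± 87.9 in Cast (SD, n = 3), by 0.53 ± 0.13 on the log2 scale, and this was called with an adjusted p of 0.012 but not without F0 B6 replicate 2 or F0 Cast replicate 2 (0.050 and 0.052) or without the filter on low levels (0.11).

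Srp72, which with Srp68 forms the heterodimer on the particle's RNA, was lower in Cast by a log2 difference of -0.23 ± 0.06 (adjusted p = 0.020). The call was lost on the deposited log expression, without the variance trend and in 4 of the 6 fits without 1 library, with adjusted p of 0.051 to 0.066 in the latter. Srp68 stood at 1137 ± 64.3 and 1170 ± 78.1, and Srp19, which binds the RNA before Srp54 joins, at 249 ± 20.6 and 274 ± 6.00 in B6 and Cast (SD, n = 3). Neither passed the test (adjusted p of 0.72 and 0.33). Of these 5 genes 1 rose and 2 fell in Cast, where 17.2% of the genes tested were called higher and 16.6% lower.

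Of the receptor genes, Srprb, the membrane-anchored GTPase subunit, was lower in Cast and Srpr did not pass. Srprb had 1100, 1250 and 1190 count equivalents in F0 B6 and 432, 534 and 516 in F0 Cast, a log2 difference of -1.26 ± 0.10 (adjusted p = 2.2e-05). The Cast allele of Srprb was also the lower one in all 6 F1 libraries, 562 to 663 against 1030 to 1210 on the B6 allele, by a log2 difference of -0.92 ± 0.04 (SE, n = 6; adjusted p = 2.2e-05 by limma). Srpr, the subunit that pairs with Srp54, stood at 990 ± 121 and 1123 ± 64.3 (SD, n = 3) with an adjusted p of 0.18. It passed under 1 of the alternative settings.

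The F1 alleles of the particle genes were close to each other. Srp9 was higher on the Cast allele in F1, by a log2 difference of 0.23 ± 0.05 (adjusted p = 0.0094 by limma), the direction opposite to F0. Srp72 likewise was 0.13 ± 0.02 higher (adjusted p = 0.0083), a call lost on the deposited log expression (0.09, adjusted p = 0.10), and Srp14 0.30 ± 0.05 higher (adjusted p = 0.0033), as in F0. The difference between the F0 and the F1 values was not tested. Srp9 had 77.3 unique hits per 100 count equivalents in F0 B6 and 62.8 in F0 Cast, beside medians over genes of 86.8 and 69.0 and 12.0 and 2.77 for the Srp54 sum.

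**Figure D5:**
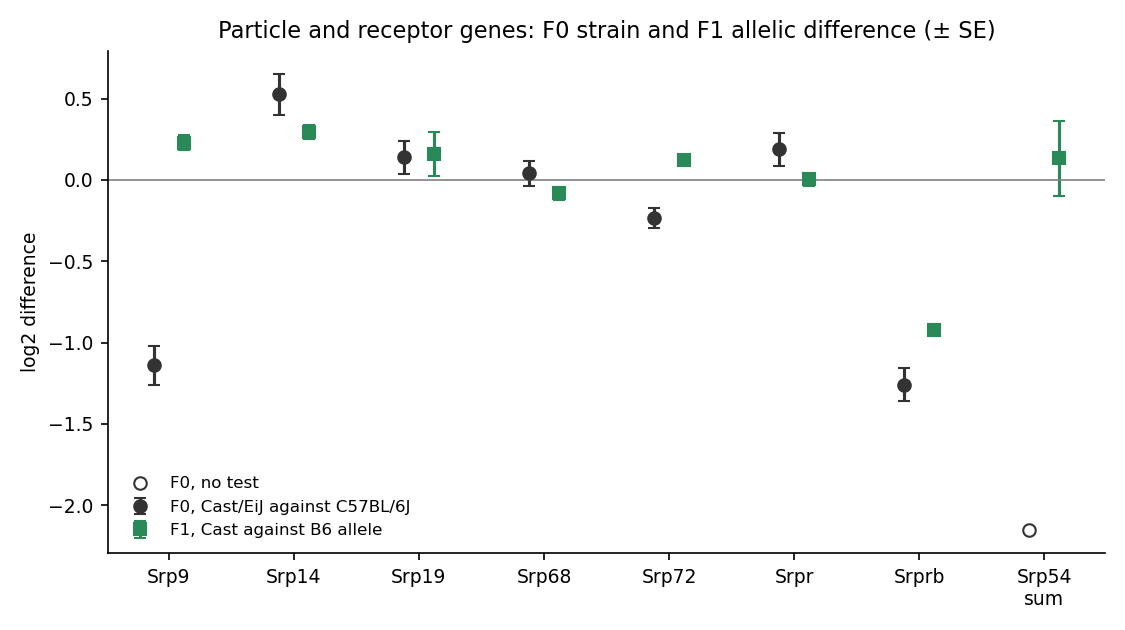
Log2 difference of Cast against B6 in F0 (circles) and between the alleles in F1 (squares) for the particle genes Srp9, Srp14, Srp19, Srp68 and Srp72, the receptor genes Srpr and Srprb, and the sum of the 3 Srp54 genes. Bars are standard errors from limma, and the open circle is a ratio of means without a test. Srprb is below 0 in both, while Srp9 and the Srp54 sum are below -1 in F0 and at 0.23 and 0.13 in F1.

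Beyond the receptor, 27 of 30 genes of the translocon, its associated proteins, signal peptidase, oligosaccharyltransferase and the tail-anchored protein pathway were tested in F0. Of these, 7 rose and 1 fell in Cast, where 17.2% of all genes tested were called higher and 16.6% lower, with a median log2 difference of 0.13 beside 0.03 over all genes. The genes with the largest rise in their list were Tram1 in the translocon list (0.36 ± 0.08), Sec11a of signal peptidase (0.49 ± 0.12), Dad1 of oligosaccharyltransferase (0.34 ± 0.08) and Bag6 of the tail-anchored route (0.35 ± 0.09), with adjusted p of 0.0065 to 0.019. Spcs3 of signal peptidase was the one that fell, with a log2 difference of -0.48 ± 0.13 (adjusted p = 0.021). In F1, 7 of the 27 were higher and 5 lower on the Cast allele, where 41.5% of all features were called and 20.8% were higher.

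Around the locus, 14 genes within 500 kb reached a mean of 10 count equivalents. Of the 12 tested in F0, 1 was called, beside 33.8% of all genes. This was 2700097O09Rik, which ends at 56181097, next to the first exons of Srp54a and Srp54b. It had 300, 259 and 202 count equivalents in F0 B6 and 107, 108 and 112 in F0 Cast, a log2 difference of -1.19 ± 0.15 (adjusted p = 0.00048). Its Cast allele was the lower one in all 6 F1 libraries, at 133 to 166 against 199 to 293, by -0.78 ± 0.11 (SE, n = 6; adjusted p = 0.0025 by limma), with 560 unique hits on the Cast and 1021 on the B6 allele. Of the 13 neighbours tested in F1, 3 were higher and 2 lower on the Cast allele, where 41.5% of all features were called and 20.8% were higher. Snx6 was also lower on the Cast allele (-0.51 ± 0.05, adjusted p = 0.00044), while Cfl2, 1110008L16Rik and Insm2 were higher (0.26 ± 0.05, 0.58 ± 0.14 and 0.77 ± 0.24, adjusted p of 0.0081, 0.018 and 0.042). These 4 were not called in F0.

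A pair of genes among the copies had no unique reads. Fam177a lies inside the annotated span of Srp54b, after the end of Srp54a, and 1700047I17Rik2 between Srp54b and Srp54c, and both had 0 unique hits in all 18 columns and are marked as without polymorphism. In F0 B6 Fam177a was given 2.06, 626 and 263 count equivalents and 1700047I17Rik2 121, 0.0735 and 0.394. Where one was high the other was near 0 in these libraries.

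The genes most like each copy were sought by Pearson's r of log2(count equivalents + 1) over the 18 columns, among the 10226 autosomal genes whose mean level reached 100. Columns of 1 strain share their genome, and alleles of 1 library share its RNA, so r is a description. For Srp54a these were Atp6v0e2 (0.976), Syngr1 (0.971) and Tspan13 (0.942), for Srp54b Kcna1 (0.846), Rsph3a (0.805) and Pigk (0.799), and for Srp54c 1500011B03Rik (0.945), Ahcy (0.939) and Alg10b (0.938). For the sum they were Rsph3a (0.910), Syt2 (0.851) and Srgap1 (0.849). Of these 11 genes Tspan13 alone is on chromosome 12. Among the copies themselves r was -0.06 between Srp54a and Srp54b, -0.45 between Srp54a and Srp54c and 0.48 between Srp54b and Srp54c.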

How the data were processed

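The members and gene lists were chosen with earlier results of these data known. Per the labels, the authors trimmed reads with Trim Galore 0.2.6 and mapped them with Bowtie 0.12.9 on mm9 (NCBI37); MMSEQ estimates used strain-specific (F0) or hybrid (F1) transcriptomes. The authors deposited a normalized signal (count equivalents), the natural log of expression (read as ln FPKM and exponentiated here), the posterior SD of that log (a score) and unique hits (a count). The authors' own MMDIFF comparisons were not used, apart from the deposited mark for genes without polymorphism; 36 of its columns of per-sample values were not used.

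Only autosomal genes that reached 10 count equivalents in 3 or more F0 libraries (F0 fit), or on average over the 12 allele columns (F1 fits), were tested. Limma 3.58.1 in R 4.3.3 was fitted to log2(count equivalents + 1): Cast against B6 in F0, the library's allelic log2 ratio with a cross term in F1, and the mean of alleles between crosses. Calls are at a Benjamini-Hochberg adjusted p under 0.05. The sum of the 3 genes entered the F1 fits as 1 feature. Unique hits were tested with edgeR 4.0.16 and DESeq2 1.42.0. On simulated data, 2-fold changes in 200 genes were called in 90% (F1 allelic) and 81% (F0) of cases. Each library is a pool of retinas. Named genes were the members, the particle and receptor genes, the largest called change per direction and list, called or overlapping neighbours, and 3 genes per copy by correlation. Sequences are GENCODE vM1 on NCBI37, whose gene positions equal those deposited. P-values measure the spread between these libraries, and their depth is given by unique hits. Scripts used Python 3.11.15 with scipy 1.17.1 and minimap2 2.31.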

Additional observations from a re-analysis of the deposited data

Results flagged for a closer look

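The F1 CastxB6 replicate 2 library had the highest level of Srp54b per allele column among the 6 F1 libraries, 1945 count equivalents, and its gap to the next was 0.734 of the whole range (critical value 0.625 for 6 libraries). In FPKM the same library stood at 48.6 beside 42.6 to 47.3 in the others. The F1 B6xCast replicate 3 library had the highest log2 ratio of the Cast over the B6 allele of the summed locus, 1.60, with a gap of 0.652 of the range. In that library the sum was 1097 on the B6 and 3322 on the Cast allele, while its unique hits, 82 and 104, lay within the range of the other libraries. Such gaps arise by chance in about 1 of 20 groups of samples, and 8 groups were examined.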

How the results depend on the processing

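Alternatives covered the pseudocount, the filter, TMM, the deposited log expression, unique hits, the replicate block, the variance trend and each library left out; "polymorphic genes only" was chosen after seeing the data. Of 528 recomputed values, 490 kept their direction and their side of the threshold or, for counts, stayed within 1.5 times. The allelic difference of the summed locus was 0.38 (adjusted p = 3.5e-05) in unique hits by edgeR, which leave out Srp54c and the B6 allele of Srp54a, and ran from -0.12 (without F1 B6xCast replicate 3) to 0.29 over the libraries left out. Its parent-of-origin difference was -0.054 in unique hits and 0.18 to 0.60 over libraries left out. In unique hits Srp54b turned to -0.13 between the alleles and to -0.052 by parent of origin. By parent of origin Srp54c turned to -0.43 without F1 B6xCast replicate 3 and to -0.24 without F1 CastxB6 replicate 1 (highest 1.29), and Srp54b turned to -0.029 (highest 0.18) between the crosses without F1 CastxB6 replicate 2. Srp19 turned in F1 to -0.43 on the log expression (adjusted p = 0.010) and -0.24 in unique hits, Srp68 in F0 to -0.013 without F0 Cast replicate 3 (highest 0.087), and Srpr in F1 to -0.0086 on the log expression and to as low as -0.027 with a library left out (highest 0.027). The F0 log2 ratio of the sum was -2.33 from the log expression and -3.97 from unique hits relative to depth. The cause of these changes was not tested.

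Genes called went from 4887 to 3161 in F0 without the filter, which tests more genes, and from 4 to 22 between the crosses; 4 to 11 were called between the crosses over the libraries left out (11 without F1 B6xCast replicate 1, 7 without replicate 2). Of the 34 protein-targeting genes tested in F0, 12 were called, where 33.8% of all genes tested were called. With a library left out, 7 to 12 were called (7 without F0 C57BL/6J replicate 2). By parent of origin 40 genes were called, and 26 with the replicate block. Deviations of same-numbered libraries from their group means correlated at -0.03 to 0.45 between the F0 strains and at -0.15 to -0.04 in total and -0.04 to 0.10 in allelic ratio between the crosses, and not every library correlated best with its own number, so the numbers do not pair the samples. The block brought 6376 calls in F0 and 4882 between the alleles, now with Srp54b (adjusted p = 0.0048) and Srp54c (adjusted p = 0.012). The split of Srp54c between the alleles rests on the model alone, so its call cannot be read as allelic expression. No depth could give allele-specific hits of Srp54c, which is marked as without polymorphism, or hits unique to the B6 allele of Srp54a, while Srp54b rests on 58 to 115 hits an allele.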

Other observations

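The translocon holds a gene, named here after its values were seen, that stood far apart between the alleles but not between the strains. Sec61g, the small gamma subunit of the Sec61 channel, had 64.3 count equivalents on the B6 allele and 324 on the Cast allele of the F1 libraries, a log2 difference of 2.31 ± 0.08 (SE, n = 6; adjusted p = 1.2e-05 by limma). In F0 it stood at 61.9 ± 18.5 in B6 and 63.3 ± 23.5 in Cast (SD, n = 3), a log2 difference of 0.01 ± 0.31 with an adjusted p of 0.98 by limma. Sec11c of signal peptidase, also named after its values were seen, was 1.02 ± 0.07 higher on the Cast allele (SE, n = 6; adjusted p = 0.00014 by limma) and 0.25 ± 0.08 higher in F0 Cast (adjusted p = 0.051). The difference between the F0 and F1 values of these genes was not tested.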
